A study of Mus musculus with 37 samples.

Results

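Innate nucleic acid sensing was examined here through 9 genes, Ddx58, Ifih1, Tlr3, Zbp1, Eif2ak2, Mavs, Irf3, Irf7 and Isg15, all of them found by symbol among the 24318 genes of both expression tables. They were taken by name for their place in the pathway that senses double-stranded RNA and drives interferon, and the rule that names them uses no expression value. The question they address is whether germ cells that lack Dnmt1 express, beyond controls, the antiviral genes that hypomethylated cells of other types can express. DNA methylation of DCKO or control cells was not analysed here. The comparison is therefore one of genotypes and not of methylated with unmethylated cells. RNA was sequenced from mouse primordial germ cells (PGCs), from which eggs and sperm develop. The cells were sorted by a green fluorescent reporter placed at the Oct4 locus and whose RNA was amplified before library making. Mothers homozygous for a floxed Dnmt1 allele (Dnmt1 2lox, with Oct4-IRES-Gfp) were mated to Blimp1-Cre males, whose Cre recombinase is active in germ cells. The knockout group, DCKO, is labelled Dnmt1 -/-, and the control group is labelled wild type. Which floxed or Cre alleles the control embryos carried is not stated by the labels. The E10.5 table held 3 DCKO libraries, 2 from females and 1 from a male, and 4 controls, 2 per sex. The E11.5 table held 10 DCKO libraries, 6 from females and 4 from males, and 8 controls, 4 per sex.

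RIG-I (the product of Ddx58) and MDA5 (Ifih1) bind double-stranded RNA in the cytoplasm and pass the signal to the mitochondrial adaptor MAVS, whereas TLR3 binds it in endosomes. The signal activates the transcription factors IRF3 and IRF7, which switch on interferon genes. Secreted interferon then induces a large set of interferon-stimulated genes, among them Isg15, Irf7 and the sensors themselves, so that a cell in an antiviral state is known by a joint rise of this group. In other cell types, loss of Dnmt1 is known to derepress endogenous retroviruses whose RNA can set this pathway off, a state called viral mimicry.

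The promoters of 4 members hold the sequence by which interferon-activated factors bind, and 3 of them are shown because their matches lie within the stretch printed. Promoter windows of 250 bases before to 50 bases after the start were found in RefSeq (build GRCm38.p6, whereas the deposited values rest on mm9) for 8 of the 9 members, with none for Zbp1. The motif searched was GAAA, any 2 bases and again GAAA, the core of the interferon-stimulated response element, on both strands and with overlapping matches counted. It is set in capitals in the sequences, which run 5′ to 3′ along each gene's own strand and stop 29 bases after the start. The windows printed are chr4:40239796-40240075 on the minus strand for Ddx58, chr17:78882543-78882822 on the minus strand for Eif2ak2 and chr4:156200789-156201068 on the minus strand for Isg15.
Ddx58: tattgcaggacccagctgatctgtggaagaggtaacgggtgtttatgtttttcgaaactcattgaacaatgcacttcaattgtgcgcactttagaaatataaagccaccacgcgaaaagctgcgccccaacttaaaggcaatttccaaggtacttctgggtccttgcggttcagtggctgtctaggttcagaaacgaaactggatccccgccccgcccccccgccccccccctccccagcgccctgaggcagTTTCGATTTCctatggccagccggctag
Eif2ak2: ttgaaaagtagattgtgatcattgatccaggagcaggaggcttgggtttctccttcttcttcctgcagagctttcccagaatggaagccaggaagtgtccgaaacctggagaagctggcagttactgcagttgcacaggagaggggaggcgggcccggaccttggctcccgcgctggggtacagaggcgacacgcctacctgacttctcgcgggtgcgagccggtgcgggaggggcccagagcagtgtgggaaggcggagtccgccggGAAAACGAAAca
Isg15: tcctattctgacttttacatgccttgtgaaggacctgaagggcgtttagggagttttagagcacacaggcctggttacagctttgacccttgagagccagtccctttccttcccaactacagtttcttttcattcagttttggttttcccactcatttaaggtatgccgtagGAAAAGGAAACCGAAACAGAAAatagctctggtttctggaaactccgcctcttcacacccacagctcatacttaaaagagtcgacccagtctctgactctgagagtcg

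Isg15, a ubiquitin-like protein that is joined to other proteins, had 3 matches that overlap each other between bases -78 and -57, counting the start site as 0. Ddx58 had 1 match, on the opposite strand at bases 2 to 11, and Eif2ak2 had 1 at bases 18 to 27. Ifih1 had 1, GAAACAGAAA, at bases 32 to 41, past the end of the stretch printed for the others. Mavs, Tlr3, Irf3 and Irf7 had no match in this window. Among all 32851 windows of that length, 3.44% held the motif, and among the 68 windows of a list of interferon-stimulated genes 33.8% did. The second motif, TTCNNNGAA, which STAT factors bind and which reads alike on both strands, was found in the Eif2ak2 window alone and in 8.3% of all windows. The members' windows held from 6 CpG dinucleotides (Isg15) to 19 (Mavs), against a median of 7 over all windows. Those of Ddx58, Ifih1, Eif2ak2 and Irf3 held 15, 14, 17 and 18. A match is a description of the letters and no measure of binding, and methylation of these windows was not analysed here.

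Dnmt1, the targeted gene, was lower in all DCKO libraries than in all controls at both stages, with 12.998 to 59.4 RPKM against 72.9 to 296 RPKM at E11.5 (exact permutation test of all 43758 splits, two-sided p = 4.57e-05) and 14.9 to 29.6 against 74.1 to 107 RPKM at E10.5 (p = 0.0286, the smallest that the 35 splits allow in an exact test). RPKM divides the reads of a gene by its length and by the size of the library. From 8277 to 13200 genes reached 1 RPKM per library. At E11.5, 3 libraries stood apart, with the highest mean log2 level of macrophage, endothelial, erythroid, gonadal and mesenchymal markers: male control 3 (3.58), female DCKO 4 (2.84) and male DCKO 1 (2.06), against 0.557 to 1.70 in the other 15. Their summed germ cell markers were 306, 1566 and 1243 RPKM, and in the other 15 at least 2500.4 RPKM. Male control 4, low in somatic markers, was unusual in another way, with the fewest genes at 1 RPKM (8277). It gave the highest control values of Dnmt1 (296 RPKM) and Mov10 (318 RPKM) at E11.5. The lowest control values of Mavs (0.463 RPKM) and Irf1 (0.217 RPKM) there were also its own. Germ cell markers were detected throughout, with 13 to 15 of 16 at 1 RPKM or more in each library of both stages.

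The 9 genes fell into those that PGCs transcribed and those near or at 0, and the division was alike at both stages and in both genotypes. Ddx58, Irf3, Mavs and Eif2ak2 averaged 16.8, 14.2, 5.81 and 4.93 RPKM over the 18 libraries of E11.5 and 15.7, 17.0, 6.75 and 4.72 RPKM over the 7 of E10.5. Ifih1, Tlr3, Zbp1, Irf7 and Isg15 averaged at most 0.682 RPKM at E10.5 and 0.536 RPKM at E11.5, Isg15 being the highest of them at both stages. Of their 90 values at E11.5, 52 were listed at 0 and 7 reached 1 RPKM. Of their 35 values at E10.5, 14 were listed at 0 and 5 reached 1 RPKM. An exact 0 can be a failed estimate: of 3491 genes whose median was 20 RPKM or more, 104 were also listed at 0 in some E11.5 library. The 4 genes whose mean reached 1 RPKM were tested among 11584 genes at E10.5 and 12667 at E11.5. In sorted bulk samples, fewer cells that express a gene and less RNA per cell cannot be told apart.

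**Figure D1:**
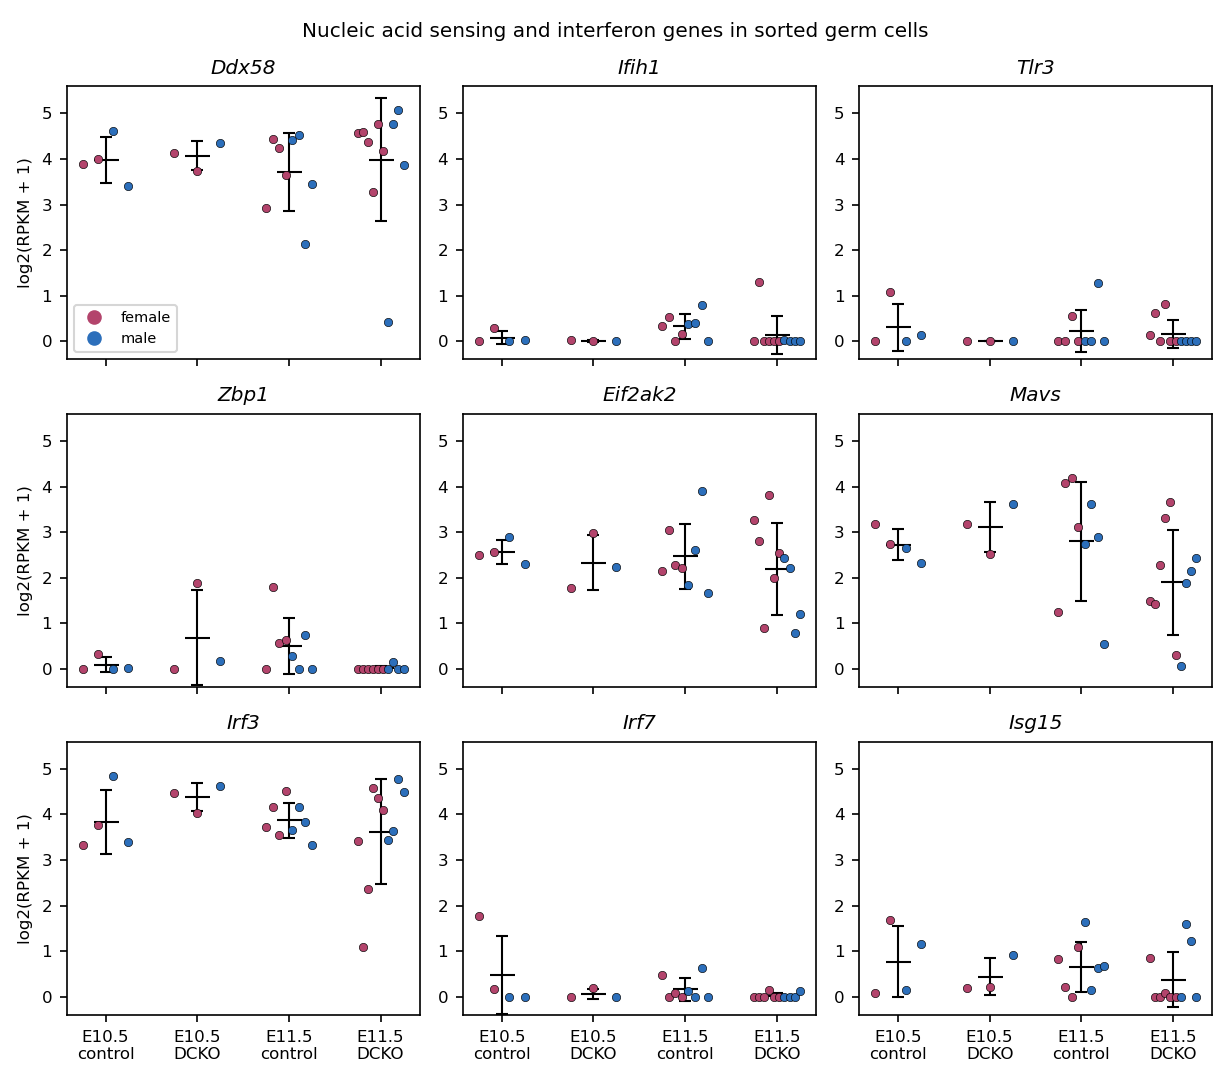
Level of the 9 genes as log2(RPKM + 1) in each library by stage and genotype, with 1 point per library coloured by sex, and the mean and SD as bars (4, 3, 8 and 10 libraries from left to right). Ddx58, Eif2ak2, Mavs and Irf3 are expressed in both genotypes with overlapping points, while the other 5 genes lie near 0 in most libraries.

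No member was called different between DCKO and control PGCs at either stage, and DCKO and control libraries overlapped for all 9. Overlap was the rule among all tested genes. At E11.5 DCKO libraries lay wholly above the controls for 0.00789 percent of them and wholly below for 0.0316 percent. At E10.5 these shares were 2.28 and 2.87 percent. The test was limma on log2(RPKM + 1) with Benjamini-Hochberg adjustment over all tested genes, and it called 0 of the 4 tested members at E11.5, where 0.0237 percent of all tested genes were called (3, all lower in DCKO). At E10.5 it called 0 of 4 members and 0 of all genes. Dnmt1 was thus not called there either, although its DCKO libraries all lay below all controls. The lack of a call at E10.5 therefore says little about the members. At an unadjusted p under 0.05, too, 0 of the 4 passed at either stage, against 5.46 percent of all tested genes at E11.5 and 3.09 percent at E10.5. The 95% intervals of the log2 differences were wide, as the plot of intervals shows: their upper bounds ran from 0.26 (Mavs at E11.5) to 1.78 (Irf3 at E10.5) and their lower bounds from -2.16 (Mavs at E11.5) to -0.54 (Irf3 at E10.5).

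**Figure D2:**
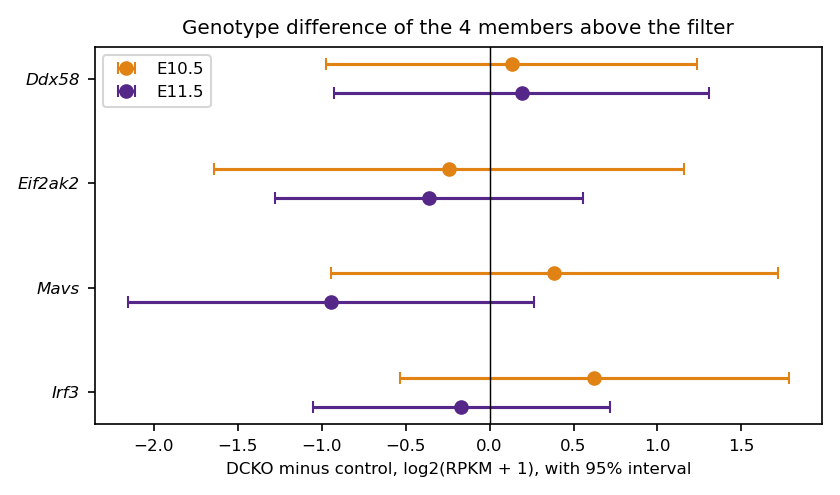
Difference between DCKO and control in log2(RPKM + 1) for the 4 tested members (points) with its 95% interval (bars), at E10.5 (orange) and E11.5 (purple). All 8 intervals include 0, and the E11.5 value farthest from 0 is that of Mavs, at -0.95.

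Among the 5 sensors of the 9 genes, Ddx58 was the most abundant. Its level lay at the 83.3rd percentile of the library in the median over the E11.5 libraries. At E10.5 the control libraries held 13.9 and 15.0 (female) and 23.4 and 9.56 RPKM (male), and the DCKO libraries held 16.5 and 12.3 (female) and 19.5 RPKM (male). At E11.5 controls ran from 3.40 RPKM through a median of 14.6 to 22.0, and DCKO libraries from 0.347 through a median of 21.2 to 32.6. The lowest DCKO value was male DCKO 1 and the lowest control value male control 3, both among the 3 libraries high in somatic markers, and 5 of the 10 DCKO libraries lay above the highest control. The difference between genotypes was 0.19 on the log2(RPKM + 1) scale at E11.5 (SE 0.53, 95% interval -0.93 to 1.31, limma adjusted p = 0.992). At E10.5 it was 0.13 (SE 0.49, limma adjusted p = 0.991). A single library decided the E11.5 value: it became 0.71 (limma adjusted p = 0.820) when male DCKO 1 was left out, and -0.06 (limma adjusted p = 0.992) when male DCKO 3 was. Without all 3 libraries high in somatic markers it was 0.56 (limma adjusted p = 0.757).

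Ifih1, which encodes MDA5, the sensor of long double-stranded RNA, was not detected at a comparable level. At E10.5 its highest value was 0.224 RPKM, in female control 2, and 2 of 3 DCKO libraries and 1 of 4 controls were listed at 0. At E11.5 controls ran from 0 through a median of 0.287 to 0.731 RPKM in male control 3, with 2 of 8 listed at 0. DCKO libraries were listed at 0 in 6 of 10, and 3 of the others held 0.00853 to 0.0144 RPKM. The exception was female DCKO 2 at 1.46 RPKM, above all controls. Tlr3 was listed at 0 in all 3 DCKO libraries of E10.5 and in 1 of 4 controls, with female control 2 at 1.103 RPKM. At E11.5 Tlr3 was listed at 0 in 7 of 10 DCKO libraries and 6 of 8 controls, and its highest values were in male control 3 (1.42 RPKM) and female DCKO 4 (0.751 RPKM), the 2 libraries highest in somatic markers. The gene models of Tlr3 and Eif2ak2 overlap Gm45542 and Gm26637 on the opposite strand, and whether counting used strand is not given in the sources used here.

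Zbp1, a sensor of Z-form nucleic acid that can set off necroptosis, had the smallest p of the members near 0 at E11.5. There it was listed at 0 in 9 of 10 DCKO libraries, the other being male DCKO 2 at 0.114 RPKM. Controls were listed at 0 in 3 of 8, and the others held 0.224, 0.490, 0.564, 0.672 and 2.48 RPKM, the last in female control 2. Fitted with no filter on low values, the difference was -0.49 (SE 0.18), with an unadjusted p of 0.0137 and a limma adjusted p of 0.898. At E10.5 the order was the other way: female DCKO 2 held 2.69 RPKM, and the other 2 DCKO libraries 0 and 0.128, against 0, 0.264, 0 and 0.0220 RPKM in the controls. The E10.5 difference was 0.53 (SE 0.45, limma adjusted p = 0.931, no filter), and without female DCKO 2 it was -0.0056.

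Eif2ak2 encodes PKR, a kinase that binds double-stranded RNA and halts translation by phosphorylating eIF2 alpha. At E10.5 controls held 4.66 and 4.95 (female) and 6.50 and 3.90 RPKM (male), and DCKO libraries 2.45 and 6.85 (female) and 3.71 RPKM (male). At E11.5 controls ran from 2.17 through a median of 3.77 to 14.02 RPKM, and DCKO libraries from 0.721 through a median of 4.04 to 13.1 RPKM. The highest library of each genotype, male control 3 and female DCKO 4, was also its genotype's highest in somatic markers, and the part of other cells in these values was not tested. The 3 DCKO libraries below all controls were female DCKO 3, male DCKO 3 and male DCKO 4. The difference was -0.36 at E11.5 (SE 0.44, 95% interval -1.28 to 0.56, limma adjusted p = 0.969) and -0.24 at E10.5 (SE 0.62, limma adjusted p = 0.991).

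**Figure D3:**
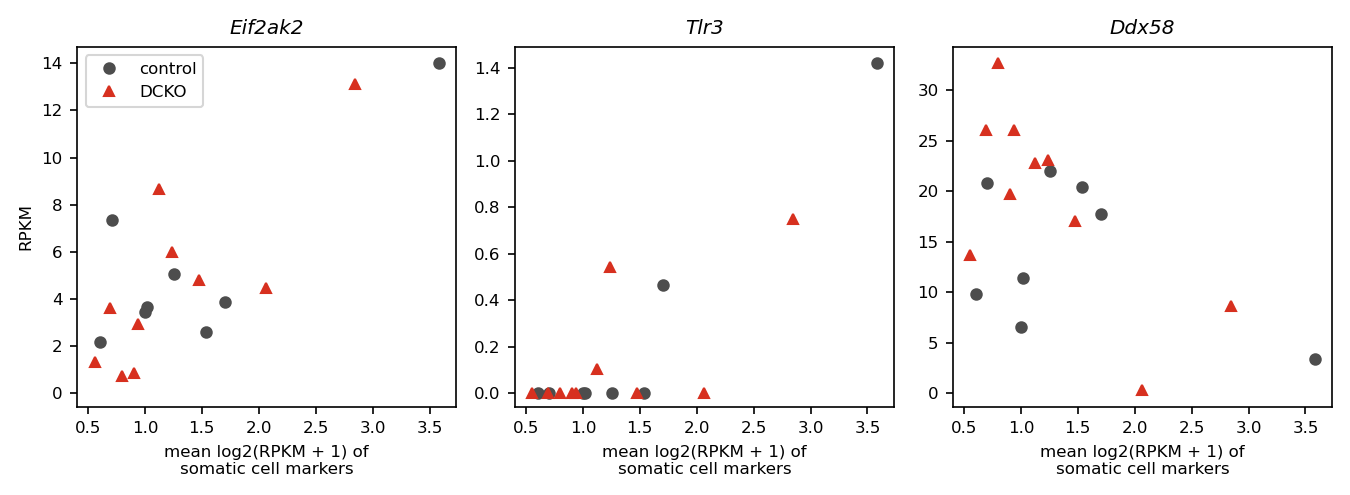
RPKM of Eif2ak2, Tlr3 and Ddx58 in the 18 E11.5 libraries (circles, control; triangles, DCKO) against each library's mean log2(RPKM + 1) of somatic cell markers. The 2 libraries farthest right, male control 3 and female DCKO 4, hold the highest Eif2ak2 and Tlr3 values and low Ddx58 values of 3.40 and 8.61 RPKM.

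Mavs, the adaptor shared by RIG-I and MDA5, was the tested member with the largest difference at E11.5, and that difference did not pass the test. Controls ran from 0.463 through a median of 7.06 to 17.2 RPKM, and DCKO libraries from 0.0403 through a median of 3.06 to 11.6 RPKM. Male DCKO 1 and female DCKO 6 (0.237 RPKM) lay below all controls, no DCKO library lay above them, and male control 4 was the lowest control. The difference was -0.95 (SE 0.58, 95% interval -2.16 to 0.26, limma adjusted p = 0.912). At E10.5 controls held 8.01 and 5.73 (female) and 5.33 and 4.05 RPKM (male), against 8.01, 4.79 and 11.4 RPKM in DCKO, for a difference of 0.39 (SE 0.59, limma adjusted p = 0.991). The E10.5 value rested on the only male DCKO library, without which it was -0.11.

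Irf3, the constitutively expressed factor that responds first to MAVS signalling, was at a level like that of Ddx58. At E10.5 controls held 9.06 and 12.7 (female) and 27.6 and 9.50 RPKM (male), and DCKO libraries 21.2 and 15.4 (female) and 23.7 RPKM (male). The DCKO values lay above 3 of the 4 controls and below male control 1. The difference was 0.62 (SE 0.51, 95% interval -0.54 to 1.78, limma adjusted p = 0.991). At E11.5 controls ran from 9.08 through a median of 12.8 to 21.9 RPKM, and DCKO libraries from 1.13 through a median of 13.8 to 26.2 RPKM. Female DCKO 2 was the lowest, and the difference was -0.17 (SE 0.42, limma adjusted p = 0.992) with it and 0.05 (limma adjusted p = 0.997) without it.

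Irf7, which is itself interferon-induced and amplifies the response, was close to 0. At E11.5 it was listed at 0 in 8 of 10 DCKO libraries and 4 of 8 controls and nowhere exceeded 0.557 RPKM, in male control 3. At E10.5 it was listed at 0 in 4 of 7 libraries, and female control 1 held 2.40 RPKM. Isg15 was listed at 0 in 6 of 10 DCKO libraries and 1 of 8 controls at E11.5. Its highest values there were 2.14 RPKM in male control 1 and 2.02 RPKM in male DCKO 2, and at E10.5 the highest were 2.19 in female control 2 and 1.24 in male control 2, with male DCKO 1, the highest DCKO library, at 0.878. Isg15 has a near-identical transcript, AC151275.1, with which reads could be shared, so its values are uncertain. Fitted with no filter, the E11.5 differences of Irf7, Isg15, Ifih1 and Tlr3 were -0.14, -0.22, -0.21 and -0.10, with limma adjusted p from 0.898 to 0.942.

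Over all 9 genes the E11.5 difference was below 0 for 8, Ddx58 being the exception, and at E10.5 for 5. Among all genes, 45 percent of those tested at E11.5 and 46.8 percent at E10.5 had a difference above 0 (41 and 46.4 percent with no filter on low values). The members near 0 held 36 of 50 values listed at 0 in DCKO and 16 of 40 in controls at E11.5, and 8 of 15 against 6 of 20 at E10.5. Genes at 0 in a library share 1 percentile, the middle of the ranks they fill, which rises with the share of all genes at 0. At E11.5 this percentile was 17.7 to 26.2 in controls with a member at 0 and 18.1 to 25.6 in DCKO libraries. The share of all genes at 0 was thus alike in the genotypes, unlike that of these members. Among genes of a like low level it was not counted. Whether the members' difference is particular to them among such genes is therefore not known. Macrophage markers, which come from a cell type rich in these sensors, also had lower medians in DCKO. At E11.5 the 16 markers summed to 0.101 to 45.2 RPKM in DCKO libraries (median 2.29) and 0.124 to 48.5 RPKM in controls (median 19.2). At E10.5 they summed to 1.09 to 7.01 RPKM in DCKO and 0.391 to 45.4 RPKM in controls. Of the 5 macrophage markers tested, 1 had a difference above 0 at E11.5 (median -0.61) and 0 at E10.5 (median -0.80). None of the 5 was called, and at E11.5 2 of them were lower in DCKO at an unadjusted limma p under 0.05. Tyrobp had the smallest p there, with a mean of 0.224 RPKM in DCKO and 4.91 RPKM in controls. Its difference was -1.66 (SE 0.51, limma adjusted p = 0.849). Cd68, the most abundant of the 16 markers at E11.5, averaged 4.79 RPKM in DCKO and 4.15 RPKM in controls. Aif1, C1qa, Cd14 and Spi1 were listed at 0 in all 10 DCKO libraries and had control medians of 0. The part of macrophage RNA in the levels of the members near 0 was not tested.

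The sexes were compared at E11.5, where each had 4 or more libraries per genotype. In females the differences between genotypes were 0.48 for Ddx58, -1.08 for Mavs, 0.12 for Eif2ak2 and -0.67 for Irf3, and in males -0.10, -0.81, -0.84 and 0.33. None of the 4 was called in females, where limma called 0.00789 percent of all genes, or in males, where it called 0.0316 percent. None had an unadjusted p under 0.05, against 2.17 percent of all genes in females and 6.95 percent in males. The difference between the sexes was largest for Irf3, at -1.01 (female minus male, SE 0.84), and for Eif2ak2, at 0.97 (SE 0.88), with a limma adjusted p of 0.995 for each. The interaction called 0 of all genes, and 3.58 percent of all genes, but no member, had an unadjusted p under 0.05.

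The 4 expressed members did not rise and fall together across the E11.5 libraries. The highest Pearson r between any pair of them was 0.38, for Ddx58 and Mavs, and the lowest -0.31, for Ddx58 and Eif2ak2 (log2 values, 18 libraries that differ in their somatic marker levels). The genes most like Ddx58 among all tested were Mov10l1 (r = 0.90), a germline RNA helicase of the piRNA pathway, and Urb2 (r = 0.90). Those most like Eif2ak2 were Nrk (0.84) and Hid1 (0.79), those most like Mavs were Mzt2 (0.86) and Ift122 (0.83), and those most like Irf3 were Shoc2 (0.78) and Zfp869 (0.75). These partners were picked for having the highest r among the 12667 genes tested at E11.5. Among so many genes some high r can arise by chance, and the highest r that chance would give was not computed. The E11.5 values alone therefore do not show that any pair is linked. Spearman rho was taken on the same picked pairs and libraries and is no separate check. Spearman rho of these 8 pairs at E11.5 ran from 0.64 (Irf3 with Zfp869) to 0.85 (Mavs with Mzt2). For Ddx58 it was 0.72 with Mov10l1 and 0.71 with Urb2, below the Pearson r. Over the 7 E10.5 libraries the Pearson r of these 8 pairs ran from -0.66 to 0.39, and that of Ddx58 with Mov10l1 was 0.23.

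Around the members, further genes of the pathway were read as lists, and no list gene was called at either stage. Of 24 RNA and DNA sensors, 11 were tested at E11.5, of which 3 had a difference above 0 (median -0.22), and 10 at E10.5, of which 3 did (median -0.33). The medians over all tested genes were -0.06 and -0.05. Mov10, an RNA helicase that restrains retroelements, had the smallest p of this list at both stages. At E10.5 it held 17.1, 35.5 and 56.1 RPKM in DCKO and 63.7 to 110 RPKM in controls, a difference of -1.27 (SE 0.45, limma adjusted p = 0.991). Libraries of the genotypes did not overlap there, which was so, with DCKO lower, for 2.87 percent of all tested genes. At E11.5 they overlapped, with 5.76 to 82.6 RPKM (median 38.9) against 20.6 to 318 RPKM (median 56.4), a difference of -1.17 (SE 0.53, limma adjusted p = 0.902).

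Of 35 adaptors, ubiquitin ligases and kinases, 12 of the 26 tested were above 0 at E11.5 (median -0.08) and 17 of the 25 tested at E10.5 (median 0.39). The genes with the smallest p were Rnf135, a ubiquitin ligase of RIG-I, at E11.5 (-1.11, SE 0.47, limma adjusted p = 0.902) and Rnf31, the catalytic subunit of the linear ubiquitin ligase, at E10.5 (1.59, SE 0.77, limma adjusted p = 0.991). Of 14 interferon regulatory and STAT factors, 5 of the 10 tested were above 0 at E11.5 (median 0.07) and 3 of the 8 tested at E10.5 (median -0.10). Irf1, which interferon gamma induces in many cells, held 6.26, 24.4 and 10.2 RPKM in E10.5 DCKO libraries and 32.3 to 45.5 RPKM in controls. Its genotypes did not overlap there, as was so with DCKO lower for 2.87 percent of all tested genes, and its difference was -1.65 (SE 0.52, limma adjusted p = 0.991). At E11.5 it overlapped, at 7.17 to 37.1 RPKM in DCKO and 0.217 to 38.5 RPKM in controls, with a difference of 0.27 (SE 0.56, limma adjusted p = 0.991). Nfkb1 had the smallest p of these factors at E11.5, at -1.07 (SE 0.48, limma adjusted p = 0.902).

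Interferon transcripts themselves were at or near 0. Of 21 interferon genes in the tables, 19 were listed at 0 in all E10.5 libraries and 18 in all E11.5 libraries, and none reached the mean of 1 RPKM needed for a test. The exceptions above 1 RPKM, chosen after their values were seen, were Ifnab at 5.23 RPKM in female DCKO 1 and Ifnl2 at 2.72 RPKM in female DCKO 6, both at E11.5. In female DCKO 1 Isg15 was at 0.791 RPKM and Irf7 and Zbp1 were listed at 0. In female DCKO 6 all 5 members near 0 were listed at 0. Receptor chains differed in level. At E11.5 the mean of Ifnar1, a chain of the type I receptor, was 8.35 ± 3.31 RPKM over the DCKO libraries (SD, n = 10) and 10.1 ± 4.44 RPKM over the controls (SD, n = 8). Ifnar2, the other chain, was uneven: at E10.5 it ran from 0 to 60.8 RPKM in controls and from 0 to 0.0479 RPKM in DCKO, and at E11.5 from 0 to 23.2 and from 0.0493 to 74.0 RPKM. Il10rb, a chain of the interferon lambda receptor, averaged 0.468 RPKM at E11.5. Of the tested receptors and JAK kinases with their inhibitors, 5 of 12 were above 0 at E11.5 (median -0.10) and 3 of 11 at E10.5 (median -0.36). Socs1, an inhibitor of JAK kinases, had the smallest p at E10.5, listed at 0 in all 4 controls and at 9.74, 0.881 and 0.502 RPKM in DCKO. The difference was 1.54 (SE 0.81, limma adjusted p = 0.991). DCKO libraries lay wholly above the controls there for 2.28 percent of all tested genes. At E11.5 Socs1 was listed at 0 in 5 of 10 DCKO libraries and 6 of 8 controls. Its highest values there were 9.26 RPKM in female DCKO 6 and 1.07 RPKM in male control 3, and the difference was 0.82 (SE 0.52, limma adjusted p = 0.915). Ifngr2, a chain of the interferon gamma receptor, had the smallest p of the list at E11.5 (-0.99, SE 0.53, limma adjusted p = 0.909).

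Of the 71 interferon-stimulated genes found, 39 averaged under 1 RPKM at E11.5 and 38 at E10.5. Low means were common in general: of all 24318 genes, only 12667 averaged 1 RPKM or more at E11.5 and 11584 at E10.5. Per E11.5 library, 8277 to 13200 of all genes reached 1 RPKM in controls (median 10730) and 8607 to 11903 in DCKO (median 10174). Among the 71, 17 to 37 reached 1 RPKM per control library at E11.5 (median 29) and 20 to 33 per DCKO library (median 24), and at E10.5 25 to 33 against 23 to 29. Of those tested, 12 of 32 were above 0 at E11.5 (median -0.10) and 10 of 33 at E10.5 (median -0.15). The most abundant were Trim25, a ubiquitin ligase of RIG-I (49.6 RPKM over the E11.5 libraries), Parp12 (44.1 RPKM), Samhd1, which degrades deoxynucleotides (32.3 RPKM), and Pml (29.6 RPKM). Their differences at E11.5 were -0.20, 0.19, -0.10 and -0.77, with limma adjusted p of 0.902 or more. Some genes that mark an interferon response in many cell types were near 0 and others were not, and those named here were chosen after their values were seen. Over the E11.5 libraries Ifit1 averaged 0.0669, Mx1 0.105, Rsad2 0.0735, Usp18 0.0569, Oasl2 0.321 and Cxcl10 0.00715 RPKM, whereas Bst2 averaged 17.4 and Ifi27 12.958 RPKM. The smallest p at E11.5 was that of H2-K1, a class I antigen-presenting molecule whose reads can be shared with its close relatives. It held 0 to 0.985 RPKM in DCKO (median 0.0481) and 0 to 5.89 RPKM in controls (median 3.20), a difference of -1.45 (SE 0.42, limma adjusted p = 0.722). At E10.5 its difference was 1.32 (SE 0.98, limma adjusted p = 0.991), and there Dtx3l had the smallest p of the group (-1.40, SE 0.71, limma adjusted p = 0.991).

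**Figure D4:**
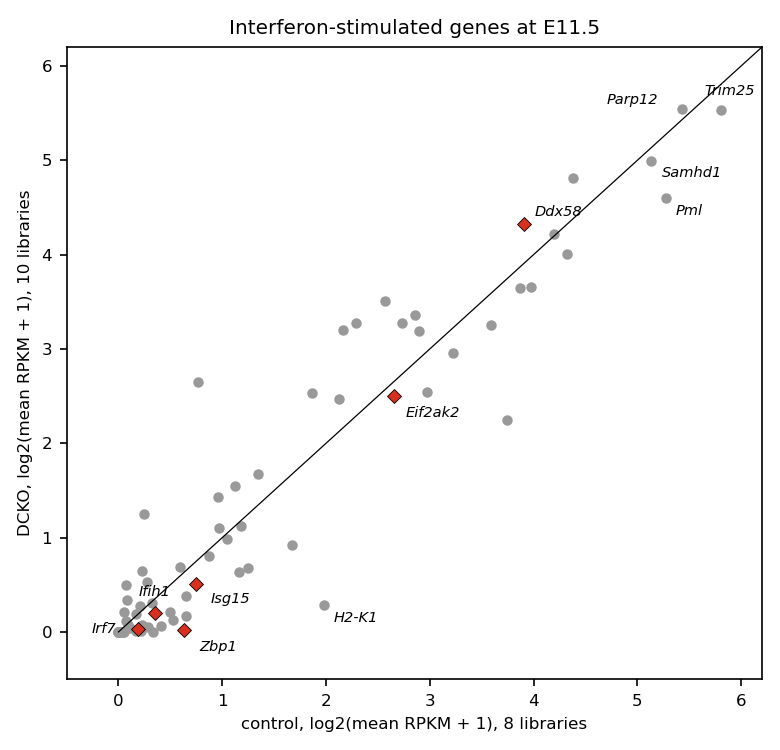
Mean level of the 71 interferon-stimulated genes at E11.5, as log2(mean RPKM + 1), in DCKO (10 libraries) against control PGCs (8 libraries), with the members that belong to the list as red diamonds and the line of equal levels. Genes lie on both sides of the line, Ddx58 and Eif2ak2 near it at intermediate level, and Isg15, Zbp1, Ifih1 and Irf7 near the origin.

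Ifitm1, Ifitm2 and Ifitm3 were far more abundant than the other genes described here, whereas 3 of the 7 members of their family averaged under 1 RPKM at each stage. These membrane proteins restrict viral entry, and Ifitm3 (Fragilis) is a classical marker of nascent germ cells. At E10.5 Ifitm3 was at 997 ± 442 RPKM in the DCKO group (SD, n = 3) against 1608 ± 535 RPKM in the controls (SD, n = 4), and at E11.5 at 712 ± 437 (SD, n = 10) against 840 ± 453 RPKM (SD, n = 8). The differences were -0.69 (SE 0.45, limma adjusted p = 0.991) and -0.17 (SE 0.40, limma adjusted p = 0.992). Ifitm1 and Ifitm2 averaged 394 and 702 RPKM at E11.5, and reads can be shared among these close relatives. Ifitm5 had the smallest p of the family at E11.5 (0.40, SE 0.65, limma adjusted p = 0.978).

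Genes that edit or clear nucleic acid and those of the eIF2 alpha branch gave the same picture of no call. Of the former, 4 of 19 were above 0 at E11.5 (median -0.10) and 6 of 20 at E10.5 (median -0.30). Rnaseh2a, the catalytic subunit that removes RNA from RNA-DNA hybrids, held 26.2 to 53.3 RPKM in the 3 E10.5 DCKO libraries and 16.0 to 20.6 RPKM in controls, without overlap, as was so with DCKO higher for 2.28 percent of all tested genes. Its difference was 0.91 (SE 0.40, limma adjusted p = 0.991) there and -0.60 (SE 0.52, limma adjusted p = 0.946) at E11.5. Fbxo7, a subunit of ubiquitin ligases that the list also holds although it is not known to edit or clear nucleic acid, had its smallest p at E11.5 (-0.71, SE 0.52, limma adjusted p = 0.946). Of the eIF2 alpha kinases and stress response genes, 3 of 11 were above 0 at E11.5 (median -0.32) and 4 of 10 at E10.5 (median -0.02). Atf4, the transcription factor whose translation rises when eIF2 alpha is phosphorylated, held 62.1 to 252 RPKM in E11.5 DCKO libraries (median 128) and 60.1 to 110 RPKM in controls (median 92.7), a difference of 0.60 (SE 0.24, limma adjusted p = 0.902). Eif2ak3, which encodes PERK, had the smallest p of this list at E10.5 (0.77, SE 0.62, limma adjusted p = 0.991).

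**Figure D5:**
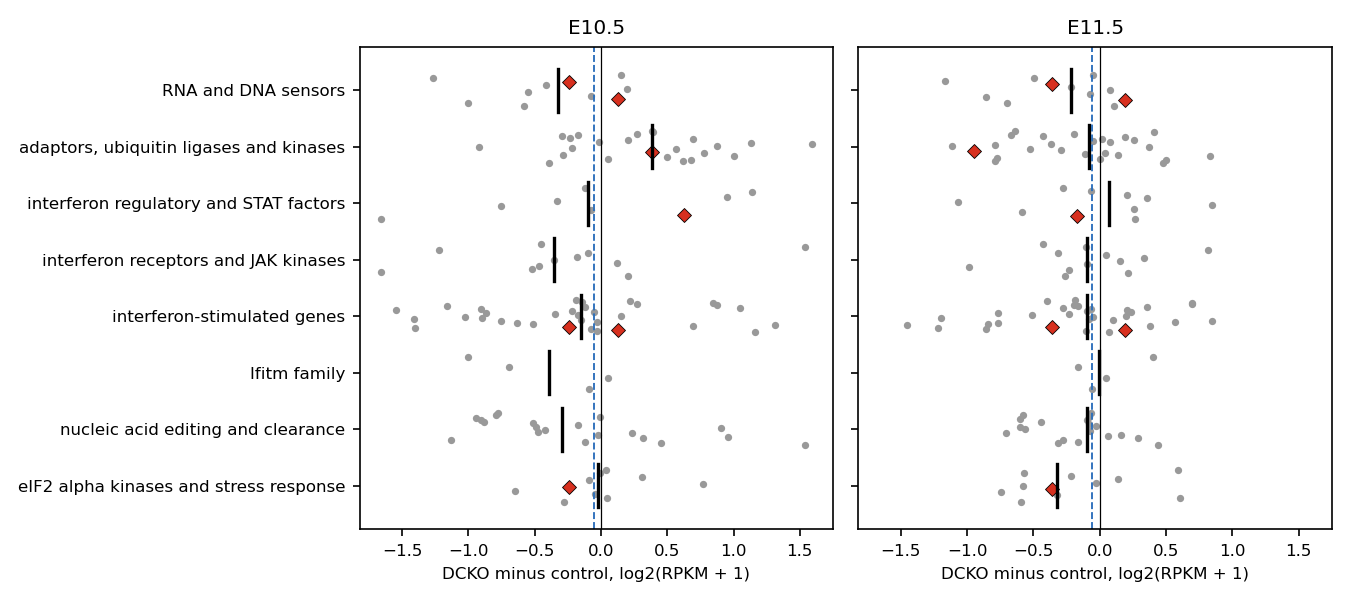
Difference between DCKO and control in log2(RPKM + 1) for each tested gene of 8 pathway lists at E10.5 (left) and E11.5 (right), with members as red diamonds, the median of each list as a black bar and the median of all tested genes as a dashed line. List medians lie between -0.39 and 0.39 at E10.5 and between -0.32 and 0.07 at E11.5, and genes of each list spread to both sides of 0.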

How the data were processed

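RNA-sequencing values of sorted germ cells were taken from 1 deposited table per stage, in RPKM computed by the authors for 24318 genes. The submitters' processing notes name TopHat2 2.1.0, Cufflinks 2.2.1, Cuffdiff and the mouse build mm9, without saying which made these tables. Library depth is unknown, so no counting interval is given. The 12 E13.5 samples were not used here. Groups follow the stage, genotype and sex of the labels, which do not say that libraries came from separate embryos, so p-values measure only the spread between these samples. Genes whose mean reached 1 RPKM were fitted on log2(RPKM + 1), which understates changes of low genes, with limma 3.58.1 (R 4.3.3, intensity trend, Benjamini-Hochberg adjusted p under 0.05). The E11.5 fit had 4 group means, and the E10.5 fit had terms for genotype and sex. The script was tested on simulated data with large planted changes in genes well above the filter. That test is no measure of its power for smaller changes or for genes of low level. Stages were not tested against each other, as their tables could differ in normalization. Members and lists were chosen with earlier results of these data known. Genes named were the members, the gene of each pathway list with the smallest p per stage, the 4 most abundant interferon-stimulated genes, and the 2 genes most correlated with each tested member. Ifnar1, Ifnar2, Il10rb, Ifitm1, Ifitm2 and the macrophage markers were chosen outside this rule. Alternatives were other pseudocounts, filters, scalings, weights and models, treating 0 as missing, replicate blocks and leaving out libraries.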

Additional observations from a re-analysis of the deposited data

Results flagged for a closer look

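In 9 of the 34 groups of 4 or more libraries tested at E11.5, 1 library stood far from the rest of its group. The rule marks about 1 in 20 groups by chance only where values follow a normal distribution. These RPKM values, many of them at 0, do not, so no excess can be read from the count. In 6 of the 9 groups the nearest other library, and so all others of the group, was listed at 0, so that any value above 0 stands apart. These were Ifih1 in female DCKO 2 (1.46 RPKM), Irf7 in female DCKO 4 (0.117 RPKM) and in male DCKO 4 (0.0842 RPKM), Tlr3 in female control 3 (0.465 RPKM) and in male control 3 (1.42 RPKM), and Zbp1 in male DCKO 2 (0.114 RPKM). In the other 3, Eif2ak2 was 7.34 RPKM in female control 2 with the next library at 3.88 RPKM, Irf7 was 0.391 RPKM in female control 1 with the next at 0.0530 RPKM, and Isg15 was 0.791 RPKM in female DCKO 1 with the next at 0.0643 RPKM.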

How the results depend on the processing

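None of the 4 tested members was called in any alternative that tested it, up to 21 at E10.5 and 31 at E11.5, and the smallest adjusted p of a member was 0.672 (Irf3 at E10.5) and 0.463 (Mavs at E11.5), both with library weights in limma. The 5 members near 0 were tested only in the fit with no filter, and elsewhere their differences have no p. The differences of Mavs and Eif2ak2 at E11.5 kept their sign throughout. At E10.5 the Ddx58 difference turned to -0.026 with library weights, -0.016 in female libraries alone and -0.094 without the library highest in somatic markers (male control 2, an alternative chosen after seeing the data). Mavs turned to -0.0014 and -0.11 under the first 2 of these, and Eif2ak2 to 0.25 with library weights. Leaving out 1 library at a time gave -0.094 to 0.31 for Ddx58, -0.11 to 0.67 for Mavs and -0.56 to 0.036 for Eif2ak2 at E10.5, and -0.065 to 0.71 for Ddx58 and -0.30 to 0.054 for Irf3 at E11.5. Among the members near 0, the difference turned for Zbp1 and Isg15 at E10.5 (to -0.0056 and 0.19, each with 1 library left out) and for Tlr3 at E11.5 (up to 0.063). The cause of these turns was not tested.

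Counts over all genes were small in each setting. At E10.5 limma called 0 genes, 15 in female libraries alone, 1 without male control 2 and 0 to 11 as 1 library was left out. At E11.5 it called 3 genes, 5 with library weights, 0 with exact 0 treated as missing and 2 to 5 as 1 library was left out. In females it called 1, then 2 with a pseudocount of 0.1, with no filter or in female libraries alone, 4 with library weights, 0 with 0 as missing and 1 to 2 with 1 library left out. In males it called 4, then 2 without the intensity trend, 1 with 0 as missing, 1 without the 3 libraries highest in somatic markers (chosen after seeing the data) and 1 to 4 with 1 library left out. The interaction called 0, and 0 to 1 with 1 library left out. Quantile normalization moved the share of E11.5 genes above 0 from 45 to 51.3 percent. Leaving out 1 library gave shares from 40.2 percent (without male control 4) to 48.9 percent (without male control 3).

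Libraries with the same replicate number were little alike at E11.5. The correlation of their deviations had a median of 0.0086, against 0.0012 in other pairs. It was over 0.1 in 5 of 24 same-numbered pairs at E11.5 and in 0 of 6 at E10.5. Of pairs that share the leading number of their title, 7 of 16 passed 0.1 at E11.5 (highest r 0.49) and 0 of 4 at E10.5. The labels do not give the meaning of this number. At E11.5 the median r was 0.081 in these pairs and -0.0046 in others, and the main fit had no term for the number. With a replicate block limma called 2 genes in females, 2 in males and 1 in the interaction, and with the title number as the block 1 in males. Without counts, the precision of values near 0 is unknown.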
